A study of Mus musculus with 12 samples.

Results

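*Yap1*, *Wwtr1* (the gene of TAZ), *Tead1*, *Tead2*, *Tead3*, *Tead4*, *Vgll4*, *Amot*, *Amotl1* and *Amotl2* were followed in mouse S1 gastric cancer tumorspheres with knockouts (KO) of *Nf2* and *Rasa1*. They are the transcriptional effectors of the Hippo pathway with their Vgll and angiomotin regulators, and were taken as the genes whose symbol equalled a name on that list of 10. All 10 were found among the 18926 genes of each table, and all 10 were among the 18053 genes left after genes with low counts were removed. S1 was derived from a gastric cancer of a ChetPS mouse with the alleles *Smad4* F/F, *Trp53* F/F and *Cdh1* F/+, so every group carried these alleles. Cells with stable Cas9 received guide RNA lentivirus against *Nf2*, *Rasa1* or both, or a control vector, and were selected with antibiotics. The selected cells were pooled, so the KO groups are no single clones, and the promoter that drove Cre in the mouse was not given in the sources used here. They were grown as tumorspheres, round clusters in suspension on low-attachment plates with epidermal growth factor, although the labels call them monolayer cells. Total RNA without rRNA was sequenced in 3 libraries for each of 4 groups. The study calls the points of these RNA profiles technical replicates, so the SEs and p-values measure the spread between these libraries and cannot be taken as the spread between cultures. What set the libraries of a group apart was not tested. Levels are CPM (reads of a gene scaled to library size) after TMM scaling when libraries are compared, and TPM, which are also per length, when genes are compared within a library. In bulk RNA, fewer cells of a type and less RNA per cell cannot be told apart.

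The libraries held 43818139 to 96674463 counts each, and the members' counts between 269 (*Tead4*) and 25700 (*Amotl2*). The names of the deposited tables and the labels disagree: the libraries labelled *Rasa1*-KO are named as double-KO in the tables, and those labelled double-KO as *Rasa1*-KO. *Nf2* had 55.4 to 61.0 CPM in control, 13.2 to 14.3 CPM in *Nf2*-KO, 11.6 to 12.1 CPM in the labelled *Rasa1*-KO libraries and 56.4 to 62.6 CPM in those labelled double-KO. *Rasa1* had 60.5 to 78.5 CPM in control, 97.2 to 101 CPM in *Nf2*-KO, 30.4 to 34.5 CPM in the labelled *Rasa1*-KO and 17.7 to 23.3 CPM in the labelled double-KO. The *Nf2* level thus went against the labels of 6 libraries, which are called by their labels throughout, and results with both labels exchanged stand beside the others. A control library and a *Rasa1*-KO library carry no number and are called unnumbered. By distance over all tested genes, 10 of 12 libraries lay nearest to one of their own group, while the unnumbered control lay nearest to labelled double-KO 1 and control 1 to labelled double-KO 3. The unnumbered control was at a distance of 91.7 from labelled double-KO 1, but 126 from control 1 and 168 from control 2. Within *Nf2*-KO the distances were 50.2 to 54.2. Calls of members against control that were lost or gained without the unnumbered control or control 1 are given with both values. Of the alleles deleted in the model, *Cdh1* mRNA was present at 374 to 546 CPM in control, *Smad4* mRNA at 15.6 to 29.96 CPM and *Trp53* mRNA at 3.83 to 8.85 CPM. Against control, *Cdh1* had log2 fold changes of -2.09 in *Nf2*-KO (edgeR adjusted p = 2.2e-06) and -1.57 in the labelled *Rasa1*-KO (edgeR adjusted p = 2.5e-05). *Trp53* had -0.78 and -1.05 there (edgeR adjusted p = 0.036 and 0.0097). *Smad4* was not called, and none of these genes was called in the labelled double-KO. The 5 epithelial markers in the tables (*Epcam*, *Krt8*, *Krt18*, *Krt19*, *Cldn4*) summed to between 3143 and 7415 CPM in every library, those of gastric mucous cells (3 of 5 in the tables) to between 1.07 and 8.67 CPM, of endothelium (2 of 4) to between 0.552 and 1.53 CPM and of leukocytes (3 of 4) to between 6.60 and 23.9 CPM.

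YAP and TAZ are paired co-activators without a DNA-binding domain. The Hippo kinases LATS1 and LATS2 phosphorylate them, which keeps them in the cytoplasm and marks them for degradation, and NF2 (merlin) is an activator of these kinases at the membrane. In the nucleus they bind the TEAD transcription factors, which recognise the letters GGAATG, and induce genes such as *Ccn1*, *Ccn2* and *Ankrd1*. VGLL4 competes with them for the TEADs. The angiomotins AMOT, AMOTL1 and AMOTL2 are scaffold proteins of tight junctions that bind YAP and TAZ, hold them outside the nucleus and help to activate LATS, and *Amotl2* is itself described as a YAP/TAZ target. The activity of YAP and TAZ is set mainly by phosphorylation and location of the proteins, which mRNA levels do not show.

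The promoters of the angiomotin genes are shown because these genes were called against control in *Nf2*-KO and in the labelled *Rasa1*-KO, *Amotl1* and *Amotl2* in 1 direction and *Amot* in the other. The RefSeq sequences (GRCm38.p6, the build of the files) are the 250 bases before the start site that the table gives, 5′ to 3′ on the strand of the gene. Capitals mark GGAATG or its reverse complement CATTCC. For these 3 genes the start lies inside the annotated span of the gene, so other starts exist and were not searched.
*Amotl2*, chr9:102717554-102717803, plus strand: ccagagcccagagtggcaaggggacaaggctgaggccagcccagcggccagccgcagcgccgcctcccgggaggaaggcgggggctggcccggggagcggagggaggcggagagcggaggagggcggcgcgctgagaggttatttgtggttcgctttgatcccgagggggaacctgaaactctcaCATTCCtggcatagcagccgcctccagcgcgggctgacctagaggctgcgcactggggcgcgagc
*Amotl1*, chr9:14615001-14615250, minus strand: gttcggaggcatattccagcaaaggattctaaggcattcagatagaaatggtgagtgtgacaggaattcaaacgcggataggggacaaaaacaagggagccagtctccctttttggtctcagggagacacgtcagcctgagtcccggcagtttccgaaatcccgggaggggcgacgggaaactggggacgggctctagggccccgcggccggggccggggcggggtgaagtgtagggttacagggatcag
*Amot*, chrX:145487640-145487889, minus strand: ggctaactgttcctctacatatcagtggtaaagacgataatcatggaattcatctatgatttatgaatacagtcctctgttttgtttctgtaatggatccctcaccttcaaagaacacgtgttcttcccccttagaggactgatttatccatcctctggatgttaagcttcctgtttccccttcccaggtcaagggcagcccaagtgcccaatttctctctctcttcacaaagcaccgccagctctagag
*Amotl2* held CATTCC with its first base at -65 from the start, and neither *Amotl1* nor *Amot* held these letters in the window of 250 bases before to 50 bases after the start. Windows were given for 8 of the 10 members, all but *Tead1* and *Tead4*, and 5 of the 8 held the letters on either strand: *Yap1*, *Wwtr1*, *Tead3*, *Vgll4* and *Amotl2*. Some genes have several starts, and the 8 genes had 11 windows, of which 7 held the letters. The *Wwtr1* windows overlap and hold the same match, which is counted in each. For *Vgll4* and *Tead2*, the bases after the start were not found in an annotated transcript of the gene. Of all 32851 windows of the same length, 14.7% held them, and of 27025 genes, 16.6% held them in at least 1 window. The matches before the start in the other genes are shown with the bases around them, each line with 1 match in capitals, and *Tead3* held a further GGAATG with its first base at 3 after a start, which is not printed.
*Yap1*, chr9:8004720-8004749, minus strand: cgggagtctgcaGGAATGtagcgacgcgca
*Wwtr1*, chr3:57576029-57576058, minus strand: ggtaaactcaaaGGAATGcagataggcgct
*Vgll4*, chr6:114969268-114969297, minus strand: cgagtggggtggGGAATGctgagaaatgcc
*Tead3*, chr17:28350970-28350999, minus strand: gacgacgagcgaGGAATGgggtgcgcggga
*Tead3*, chr17:28350706-28350735, minus strand: tccggccgggctCATTCCgtacattccggc
*Tead3*, chr17:28350697-28350726, minus strand: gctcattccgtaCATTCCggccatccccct
The AP-1 letters TGAGTCA, a motif often found beside TEAD sites and not overlapping GGAATG, were in 0 of the 11 windows and in 5.2% of all windows. A match is a description of letters, and no window says whether TEAD bound there.

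Against control, *Amotl2* and *Amotl1* rose and *Amot* fell both in *Nf2*-KO and in the libraries labelled *Rasa1*-KO, the groups with low *Nf2* mRNA. The *Yap1* level differed little between any groups, and *Wwtr1* rose in *Nf2*-KO and in the labelled double-KO. The TEAD genes differed widely within the control group itself. In *Nf2*-KO against control, 4 of the 10 members passed the test, 3 higher and 1 lower, beside 42.8% of all tested genes (20.6% higher and 22.2% lower). In the labelled *Rasa1*-KO against control, 5 of 10 passed, 2 higher and 3 lower, beside 41.9% of all tested genes (19.7% higher and 22.2% lower). For the labelled double-KO against control, 3 of 10 passed, 2 higher and 1 lower, beside 6.46% of all tested genes (4% higher and 2.46% lower). Members were called by edgeR's quasi-likelihood test at an adjusted p under 0.05, and SE is the standard error of a log2 fold change. The libraries did not overlap with control for 5 members in *Nf2*-KO, beside 46.8% of all tested genes, for 5 in the labelled *Rasa1*-KO, beside 46.8%, and for 4 in the labelled double-KO, beside 18.4%. With a fold of 3 or more and an unadjusted p under 0.05, 1, 1 and 0 members passed, beside 11.4%, 9.31% and 2.06% of all tested genes. Without the unnumbered control, 7 members passed in *Nf2*-KO, beside 61.6%, 7 in the labelled *Rasa1*-KO, beside 60.5%, and 5 in the labelled double-KO, beside 30.1%. Without labelled double-KO 1 as well, 7, 8 and 5 passed, beside 67%, 65.9% and 29.9%.

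**Figure D1:**
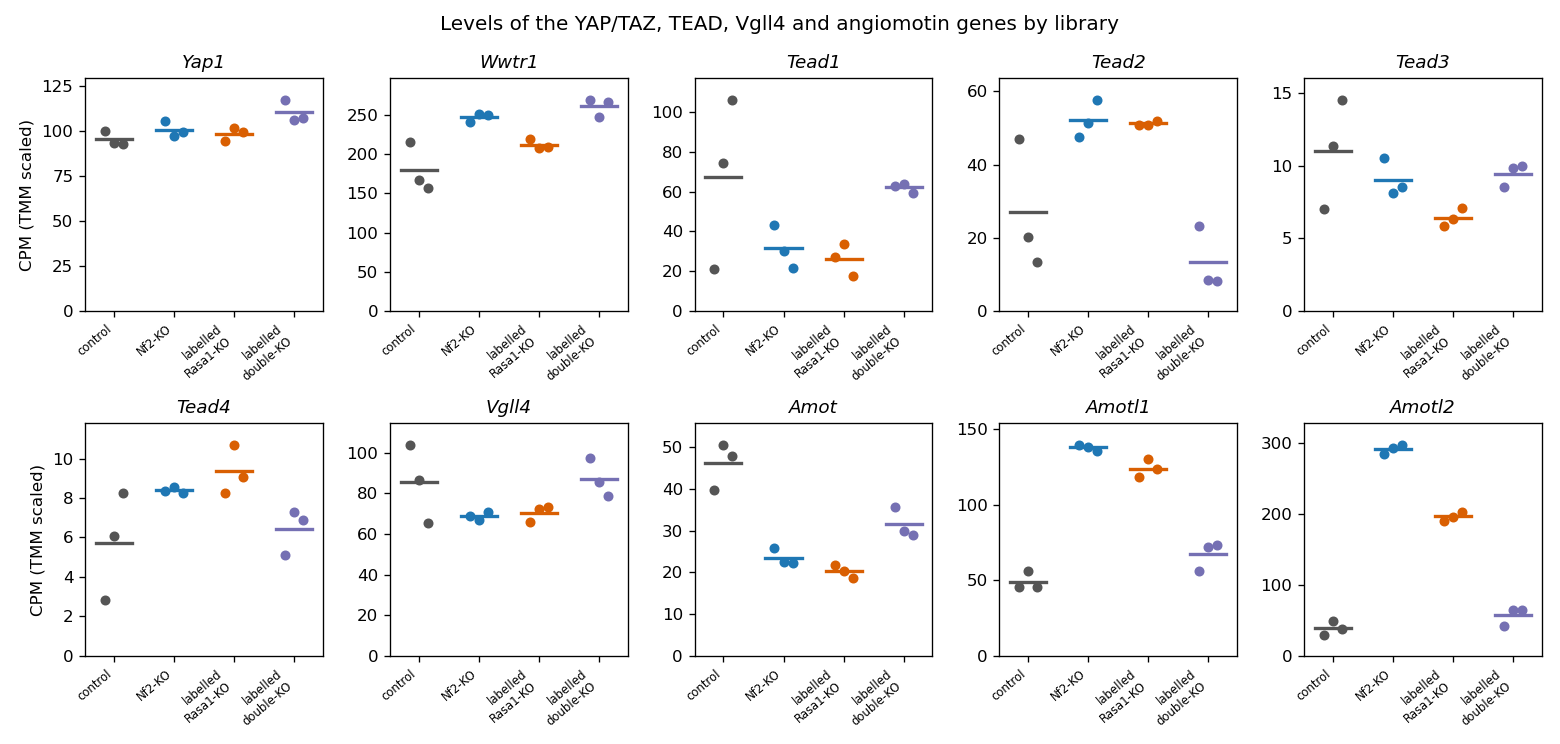
Level of each of the 10 genes (y axis, TMM-scaled CPM from 0) in the 12 libraries, with 1 point per library in the order unnumbered, 1, 2 or 1, 2, 3 and a line at the group mean. *Amotl1* and *Amotl2* of *Nf2*-KO and of the labelled *Rasa1*-KO lie above all other libraries, whereas the control libraries of *Tead1* span 21.2 to 106 CPM.

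Between the groups with low *Nf2* mRNA, the labelled *Rasa1*-KO and *Nf2*-KO, 0 of 10 members passed by edgeR, beside 3.66% of all tested genes (1.92% higher and 1.74% lower). At an unadjusted p under 0.05 there were 2, and DESeq2 called 1, *Amotl2*. The shares of all tested genes by unadjusted p or by DESeq2 were not taken, so these counts are no result about the members alone. Libraries did not overlap for 5 members, beside 39.8%, and 0 passed with a fold of 3 or more, beside 1.29%. The labelled double-KO differed from the labelled *Rasa1*-KO in 4 of 10 members, 1 higher and 3 lower, beside 30.3% of all tested genes (16.3% higher and 14% lower), and in 2 with a fold of 3 or more, beside 5.68%. The libraries of these groups did not overlap for any of the 10 members, beside 57.2% of all tested genes. Without the unnumbered control, which here enters only through the filter, the scaling and the shared estimate of the spread, 9 of the 10 passed, beside 46.4% of all tested genes, and without labelled double-KO 1 as well 8 passed, beside 50.3%. Against *Nf2*-KO, the labelled double-KO differed in the same number of members, 1 higher and 3 lower, beside 32.2% of all tested genes (16.9% higher and 15.3% lower). Libraries did not overlap for 8 members, beside 56.6%, and 2 passed with a fold of 3 or more, beside 7.73%.

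**Figure D2:**
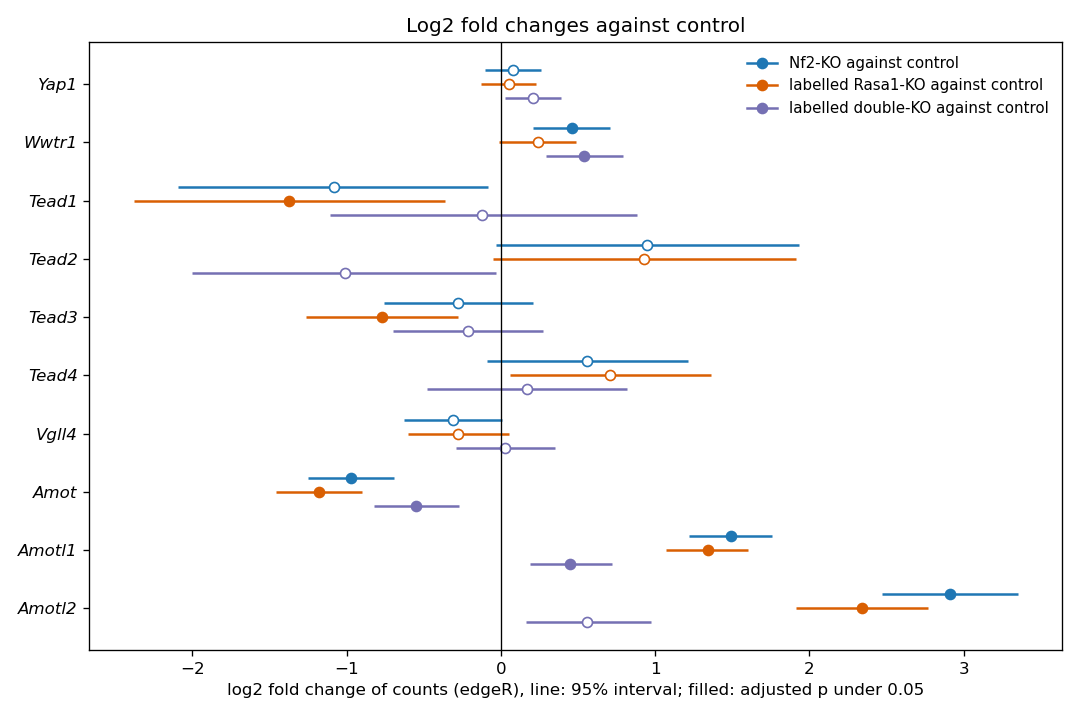
Log2 fold change of each gene against control (x axis, edgeR, with 95% intervals as lines) in *Nf2*-KO, the labelled *Rasa1*-KO and the labelled double-KO, where filled points have an adjusted p under 0.05. *Amotl2* lies at 2.91, 2.34 and 0.56, and the intervals of the TEAD genes are the widest.

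*Yap1* (Entrez 22601) occupies bases 7931999 to 8004638 of chromosome 9 (GRCm38, as for all positions given). Its level was 99.6, 93.3 and 92.5 CPM in the control libraries (unnumbered, 1 and 2) and 105, 97.1 and 99.1 CPM in *Nf2*-KO 1 to 3. It was 94.3, 102 and 99.3 CPM in the labelled *Rasa1*-KO (unnumbered, 1 and 2) and 117, 106 and 107 CPM in the labelled double-KO 1 to 3. The groups overlapped, except that all libraries of the labelled double-KO were above all others. Against control, the log2 fold change of *Yap1* was 0.08 in *Nf2*-KO (95% interval -0.10 to 0.26, edgeR adjusted p = 0.47). It was 0.05 in the labelled *Rasa1*-KO (interval -0.13 to 0.23, edgeR adjusted p = 0.65) and 0.21 in the labelled double-KO (interval 0.03 to 0.39, edgeR adjusted p = 0.17). Without the unnumbered control, the last value was 0.25 (edgeR adjusted p = 0.034).

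*Wwtr1*, on chromosome 3 from 57455644 to 57575910, encodes TAZ, the paralog of YAP. It had 216, 168 and 157 CPM in the control libraries, 241, 251 and 250.3 CPM in *Nf2*-KO, 219.8, 208 and 209.6 CPM in the labelled *Rasa1*-KO and 270.0, 247 and 267 CPM in the labelled double-KO. The unnumbered control reached the level of the labelled *Rasa1*-KO, while all libraries of *Nf2*-KO and of the labelled double-KO were above control. *Wwtr1* rose by a log2 fold change of 0.46 in *Nf2*-KO (edgeR, SE 0.12, adjusted p = 0.0076), 1.38-fold, although not with only these groups in the fit (0.43, edgeR adjusted p = 0.065). In the labelled double-KO it rose by 0.54 (edgeR, SE 0.12, adjusted p = 0.018), a value that was not called with only these groups in the fit (edgeR adjusted p = 0.28), without control 1 (0.51, edgeR adjusted p = 0.051) or without labelled double-KO 3 (0.54, edgeR adjusted p = 0.093). The value of 0.24 in the labelled *Rasa1*-KO was not called (edgeR adjusted p = 0.12), but became 0.39 without the unnumbered control (edgeR adjusted p = 0.00097). Within every library, *Wwtr1* was above *Yap1* in TPM, with ratios between 1.42 and 1.84 in control, 1.96 and 2.17 in *Nf2*-KO, 1.75 and 1.98 in the labelled *Rasa1*-KO and 1.96 and 2.13 in the labelled double-KO. *Wwtr1* therefore held between 58.7% and 68.5% of the summed TPM of the pair.

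The 4 TEAD genes encode the DNA-binding partners of YAP and TAZ, and *Tead1* and *Tead2* made up most of their summed TPM. *Tead1* occupies bases 112679356 to 112906784 of chromosome 7. Its level was 21.2 CPM in the unnumbered control, 74.5 CPM in control 1 and 106 CPM in control 2. In *Nf2*-KO it had 43.5, 30 and 21.7 CPM, in the labelled *Rasa1*-KO 26.9, 33.7 and 17.3 CPM, and in the labelled double-KO 63.1, 63.7 and 59.5 CPM. The unnumbered control thus lay among the libraries with low *Nf2* mRNA, and the other control libraries lay above all others. *Tead1* fell in the labelled *Rasa1*-KO by 1.37 on the log2 scale (edgeR, SE 0.46, adjusted p = 0.033), and the call was lost without control 1 (-1.30, edgeR adjusted p = 0.085), without control 2 (-0.90, edgeR adjusted p = 0.14), without the unnumbered labelled *Rasa1*-KO (-1.4, edgeR adjusted p = 0.082) or without labelled *Rasa1*-KO 2 (-1.15, edgeR adjusted p = 0.12). In *Nf2*-KO the value was -1.08 (edgeR adjusted p = 0.076), by DESeq2 -1.05 (DESeq2 adjusted p = 0.04), and without the unnumbered control -1.51 (edgeR, SE 0.28, adjusted p = 0.0005). In the labelled double-KO it was -0.12 (interval -1.11 to 0.88, edgeR adjusted p = 0.92).

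*Tead2* lies on chromosome 7 from 45215792 to 45233468 and is known from embryonic tissue. Its level was 47.0, 20.3 and 13.5 CPM in the control libraries, 47.4, 51.3 and 57.8 CPM in *Nf2*-KO, 50.9, 50.8 and 52.0 CPM in the labelled *Rasa1*-KO and 23.3, 8.56 and 8.19 CPM in the labelled double-KO. The unnumbered control again stood at the level of the libraries with low *Nf2* mRNA. Against control, the log2 fold changes were 0.95 in *Nf2*-KO, 0.93 in the labelled *Rasa1*-KO and -1.01 in the labelled double-KO, and none was called (edgeR adjusted p = 0.11, 0.12 and 0.22). Without the unnumbered control, *Tead2* rose by 1.63 in *Nf2*-KO (edgeR, SE 0.37, adjusted p = 0.0024) and by 1.60 in the labelled *Rasa1*-KO (edgeR adjusted p = 0.0026). Those fits called 61.6% and 60.5% of all genes tested. Without labelled double-KO 1, *Tead2* fell by 1.69 in the labelled double-KO (edgeR adjusted p = 0.038). *Tead2* also differed between KO groups, being lower in the labelled double-KO than in the labelled *Rasa1*-KO by a log2 value of -1.94 (edgeR, SE 0.46, adjusted p = 0.0084) and than in *Nf2*-KO by -1.96 (edgeR, SE 0.46, adjusted p = 0.0068). Both were called in every alternative, between -2.61 and -1.67 for the first and between -2.64 and -1.70 for the second.

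*Tead3* (chromosome 17, 28331671 to 28350805) and *Tead4* (chromosome 6, 128227143 to 128300813) are the remaining TEAD genes, with 2.86 to 14.5 CPM over all libraries. *Tead3* had 7.04, 11.3 and 14.5 CPM in control, 10.5, 8.10 and 8.51 CPM in *Nf2*-KO, 5.84, 6.32 and 7.10 CPM in the labelled *Rasa1*-KO and 8.50, 9.84 and 9.999 CPM in the labelled double-KO. The labelled *Rasa1*-KO overlapped control only through the unnumbered control. *Tead3* fell there by 0.77 (edgeR, SE 0.22, adjusted p = 0.017), a call that was lost without control 1 (-0.75, edgeR adjusted p = 0.051), without control 2 (-0.53, edgeR adjusted p = 0.067), without the unnumbered labelled *Rasa1*-KO (-0.71, edgeR adjusted p = 0.065) and without labelled *Rasa1*-KO 1 (-0.76, edgeR adjusted p = 0.05). Without the unnumbered control, *Tead3* also fell in *Nf2*-KO (-0.51, edgeR adjusted p = 0.012) and in the labelled double-KO (-0.45, edgeR adjusted p = 0.045), where the values with all libraries were -0.28 and -0.21 and not called. *Tead4* had 2.86, 6.09 and 8.25 CPM in control, 8.37, 8.54 and 8.24 CPM in *Nf2*-KO, 8.27, 10.7 and 9.06 CPM in the labelled *Rasa1*-KO and 5.10, 7.29 and 6.86 CPM in the labelled double-KO. The unnumbered control had the lowest *Tead4* level of all libraries. The *Tead4* log2 fold changes of 0.56, 0.71 and 0.17 against control were not called by edgeR (adjusted p = 0.15, 0.074 and 0.80). DESeq2 called the value in the labelled *Rasa1*-KO (0.74, DESeq2 adjusted p = 0.034). Without control 2, *Tead4* rose by 0.89 in *Nf2*-KO (edgeR adjusted p = 0.029) and by 1.05 in the labelled *Rasa1*-KO (edgeR adjusted p = 0.015).

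**Figure D3:**
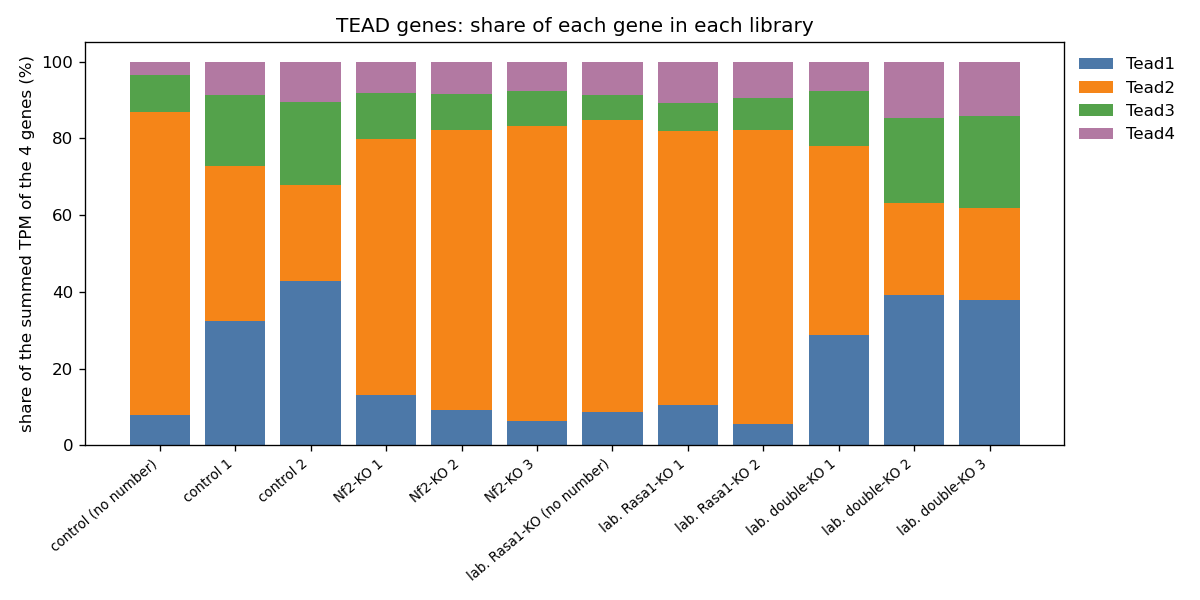
Share of each TEAD gene in the summed TPM of the 4 (y axis, %) in each of the 12 libraries, 1 stacked bar per library. *Tead2* takes 66.7% to 76.9% in *Nf2*-KO and 71.6% to 76.7% in the labelled *Rasa1*-KO, and 79.1% in the unnumbered control against 25.0% in control 2.

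The make-up of the TEAD genes per length separated the libraries in the same way. *Tead2* held 71.6% to 76.7% of their summed TPM in the labelled *Rasa1*-KO and 66.7% to 76.9% in *Nf2*-KO, but 24.0% to 49.2% in the labelled double-KO. In control, *Tead2* held 25.0%, 40.6% and 79.1%, from near the lowest shares of the labelled double-KO to above those of all other groups. The ratio of *Tead1* to *Tead2* was 0.0983, 0.797 and 1.71 in the control libraries, between 0.0813 and 0.197 in *Nf2*-KO, between 0.0717 and 0.145 in the labelled *Rasa1*-KO, and 0.584, 1.63 and 1.57 in the labelled double-KO.

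A measure of the whole libraries followed *Tead1* within control, *Nf2*-KO and the labelled *Rasa1*-KO, but not within the labelled double-KO. *Tead1* spans 227.4 kb in RefSeq, *Tead2* 17.7 kb and *Tead3* 19.1 kb, and the median coding gene 23.1 kb. *Amotl1* (121.0 kb), *Wwtr1* (120.3 kb) and *Vgll4* (109.4 kb) also span more than 100 kb, and the other members 16.3 to 73.7 kb. For 1837 coding genes of at least 100 kb and 3538 of at most 10 kb, the median deviation of log2 CPM from the mean over libraries was taken, and the long genes were set against the short. The difference was -0.32 in the unnumbered control, 0.37 in control 1 and 0.68 in control 2. It was between -0.27 and -0.03 in *Nf2*-KO, between -0.28 and -0.13 in the labelled *Rasa1*-KO and between 0.02 and 0.19 in the labelled double-KO. The control libraries were therefore at both ends of this measure, in the order of their *Tead1* levels, and the control library lowest on it had the highest *Tead2* level of the group. Over the control libraries in that order, the levels of *Wwtr1*, *Vgll4* and *Yap1* fell and those of *Tead3* and *Tead4* rose. The levels of the angiomotin genes did neither throughout. Labelled double-KO 3 was the highest of its group on the measure (0.19) and the lowest in *Tead1* (59.5 CPM). The part of this measure in the *Tead1* and *Tead2* levels was not tested, and it was chosen after their values were seen.

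**Figure D4:**
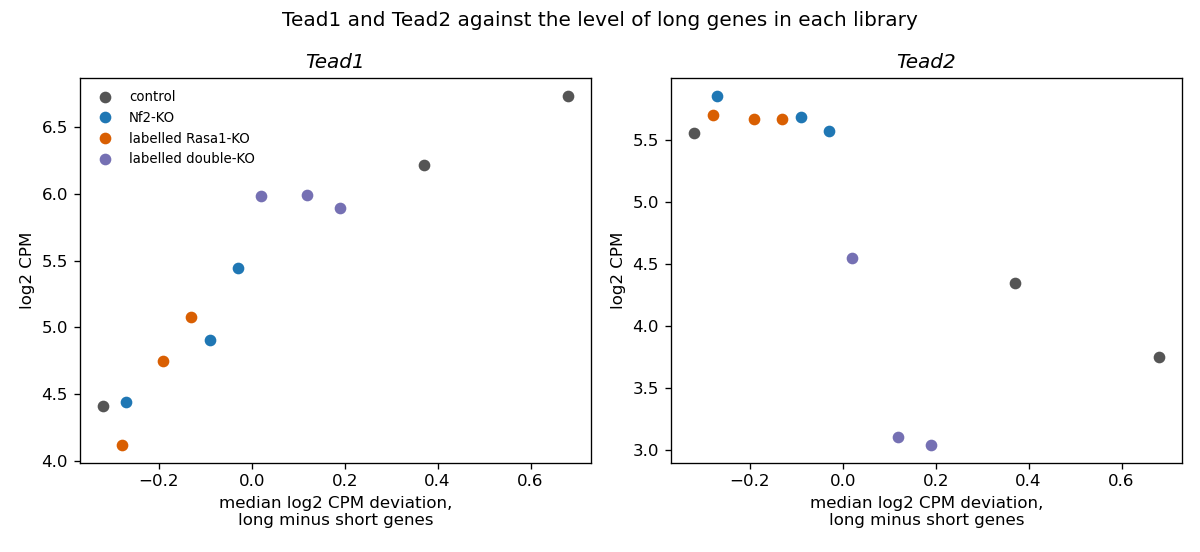
Log2 CPM of *Tead1* (left) and *Tead2* (right) on the y axes against the difference between long and short genes in the same library (x axis, log2 units, long genes minus short genes), 1 point per library coloured by group. The control libraries lie at -0.32, 0.37 and 0.68 on the x axis, and their *Tead1* levels rise in that order while their *Tead2* levels fall.

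*Vgll4*, on chromosome 6 from 114860621 to 114970007, encodes a competitor of YAP and TAZ for the TEADs. It had 104, 86.7 and 65.5 CPM in control, 68.9, 67.1 and 70.9 CPM in *Nf2*-KO, 65.9, 72.5 and 73.3 CPM in the labelled *Rasa1*-KO and 97.6, 85.5 and 78.7 CPM in the labelled double-KO. The *Nf2*-KO libraries lay within the range of control, and the labelled double-KO lay above both groups with low *Nf2* mRNA. None of its log2 fold changes against control was called (-0.31, -0.28 and 0.03, edgeR adjusted p = 0.11, 0.15 and 0.93). Without control 2 the first and second became -0.48 and -0.44 (edgeR adjusted p = 0.0052 and 0.0089). Set against the summed TPM of the TEAD genes, *Vgll4* was between 0.696 and 0.707 in *Nf2*-KO, between 0.739 and 0.820 in the labelled *Rasa1*-KO, between 1.51 and 1.71 in the labelled double-KO and between 0.819 and 1.33 in control. The ratio in the labelled double-KO lay above that in every other library.

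*Amotl2* occupies bases 102717091 to 102733418 of chromosome 9 and encodes a junction scaffold that binds YAP. It had 29.4, 48.7 and 38.6 CPM in the control libraries and 285, 293 and 298 CPM in *Nf2*-KO. It had 191, 197 and 203 CPM in the labelled *Rasa1*-KO and 42.5, 64.9 and 65.1 CPM in the labelled double-KO. The groups with low *Nf2* mRNA lay far above the others and apart from each other, and control overlapped the labelled double-KO through labelled double-KO 1. *Amotl2* rose 7.51-fold in *Nf2*-KO, or 2.91 on the log2 scale (edgeR, SE 0.20, interval 2.47 to 3.35, adjusted p = 7.1e-07). In the labelled *Rasa1*-KO it rose 5.06-fold (2.34, edgeR, SE 0.19, adjusted p = 4.8e-06). In the labelled double-KO the value was 0.56 (interval 0.16 to 0.97, edgeR adjusted p = 0.10), which DESeq2 called (0.58, adjusted p = 0.033) and which became 0.78 without control 1 (edgeR adjusted p = 0.046) and 0.74 without labelled double-KO 1 (edgeR adjusted p = 0.025). The labelled *Rasa1*-KO lay below *Nf2*-KO with no overlap of libraries, a log2 difference that was not called over all genes (-0.57, edgeR adjusted p = 0.14). It was called with only these groups in the fit (-0.58, edgeR adjusted p = 3.5e-05), by DESeq2 (-0.57, adjusted p = 0.045) and without the unnumbered control (edgeR adjusted p = 0.02).

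*Amotl1*, on chromosome 9 from 14541966 to 14662974, followed the same pattern at a smaller size. It had 45.7, 55.9 and 45.4 CPM in control, 139.7, 138 and 136 CPM in *Nf2*-KO, 118, 130.0 and 123.5 CPM in the labelled *Rasa1*-KO and 56.2, 71.9 and 73.2 CPM in the labelled double-KO. No library of a KO group fell within the range of control. *Amotl1* rose by 1.49 in *Nf2*-KO (edgeR, SE 0.12, adjusted p = 2.6e-06) and by 1.34 in the labelled *Rasa1*-KO (edgeR, SE 0.12, adjusted p = 9.3e-06), that is 2.81-fold and 2.53-fold. In the labelled double-KO it rose by 0.45 (edgeR, SE 0.12, adjusted p = 0.046), close to the threshold: leaving out any 1 of 9 of the 12 libraries, among them control 2 (0.41, edgeR adjusted p = 0.097), labelled double-KO 2 (0.40, edgeR adjusted p = 0.18) and labelled double-KO 3 (0.40, edgeR adjusted p = 0.17), ended the call. From the labelled *Rasa1*-KO to the labelled double-KO, *Amotl1* fell by 0.88 (edgeR, SE 0.12, adjusted p = 0.00029) and *Amotl2* by 1.78 (edgeR, SE 0.19, adjusted p = 5.8e-05).

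*Amot*, on chromosome X from 145446424 to 145505966, is the founding member of the family and differed in the opposite direction. It had 39.8, 50.7 and 47.9 CPM in control, 26.0, 22.4 and 22.2 CPM in *Nf2*-KO, 21.9, 20.4 and 18.8 CPM in the labelled *Rasa1*-KO and 35.7, 29.9 and 29.1 CPM in the labelled double-KO. All KO libraries lay below control, and the labelled double-KO lay between control and the groups with low *Nf2* mRNA. *Amot* fell by 0.97 in *Nf2*-KO (edgeR, SE 0.13, adjusted p = 9.2e-05) and by 1.18 in the labelled *Rasa1*-KO (edgeR, SE 0.13, adjusted p = 3.1e-05). In the labelled double-KO it fell by 0.55 (edgeR, SE 0.13, adjusted p = 0.025), and this call was lost without control 1 (-0.46, edgeR adjusted p = 0.095), control 2 (-0.51, edgeR adjusted p = 0.056), labelled double-KO 2 (-0.51, edgeR adjusted p = 0.12) or labelled double-KO 3 (-0.48, edgeR adjusted p = 0.13). *Amot* was higher in the labelled double-KO than in the labelled *Rasa1*-KO by 0.63 (edgeR, SE 0.13, adjusted p = 0.0033) and than in *Nf2*-KO by 0.42 (edgeR, SE 0.13, adjusted p = 0.024). The second of these calls was lost without *Nf2*-KO 2, without *Nf2*-KO 3 or without labelled double-KO 1 (edgeR adjusted p between 0.0046 and 0.092 over the libraries left out).

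The angiomotin family thus changed in make-up as well as in sum. *Amotl2* held 41.5% to 48.3% of the summed TPM of the 3 genes in control, 78.4% to 80.0% in *Nf2*-KO, 73.5% to 75.4% in the labelled *Rasa1*-KO and 48.6% to 56.9% in the labelled double-KO. *Amot* held 26.2% to 29.4% in control but 3.07% to 3.67% in *Nf2*-KO, 3.75% to 4.77% in the labelled *Rasa1*-KO and 13.4% to 21.4% in the labelled double-KO. The TPM ratio of *Amotl2* to *Amot* was between 1.44 and 1.84 in control, 21.4 and 26.1 in *Nf2*-KO, 15.5 and 20.1 in the labelled *Rasa1*-KO and 2.28 and 4.24 in the labelled double-KO. The summed TPM was 19.8 to 37.7 in control, 107 to 123 in *Nf2*-KO, 65.4 to 72.6 in the labelled *Rasa1*-KO and 22.1 to 38.9 in the labelled double-KO. TPM are not TMM-scaled between libraries, so these sums give no fold between groups. *Yap1* had 29.1 to 43.7 TPM in control and 25.0 to 28.5 TPM in the labelled *Rasa1*-KO, although its CPM there overlapped. The 4 fibroblast markers in the tables (*Col1a1*, *Col1a2*, *Pdgfra*, *Dcn*) also differed, summing to 33.2 to 104 CPM in control, 571 to 661 CPM in *Nf2*-KO, 144 to 186 CPM in the labelled *Rasa1*-KO and 18.2 to 25.4 CPM in the labelled double-KO. The tables hold no gene with a count of 0 in any library, so a marker absent from them has no value here. The part of the fibroblast markers in the angiomotin levels was not tested.

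**Figure D5:**
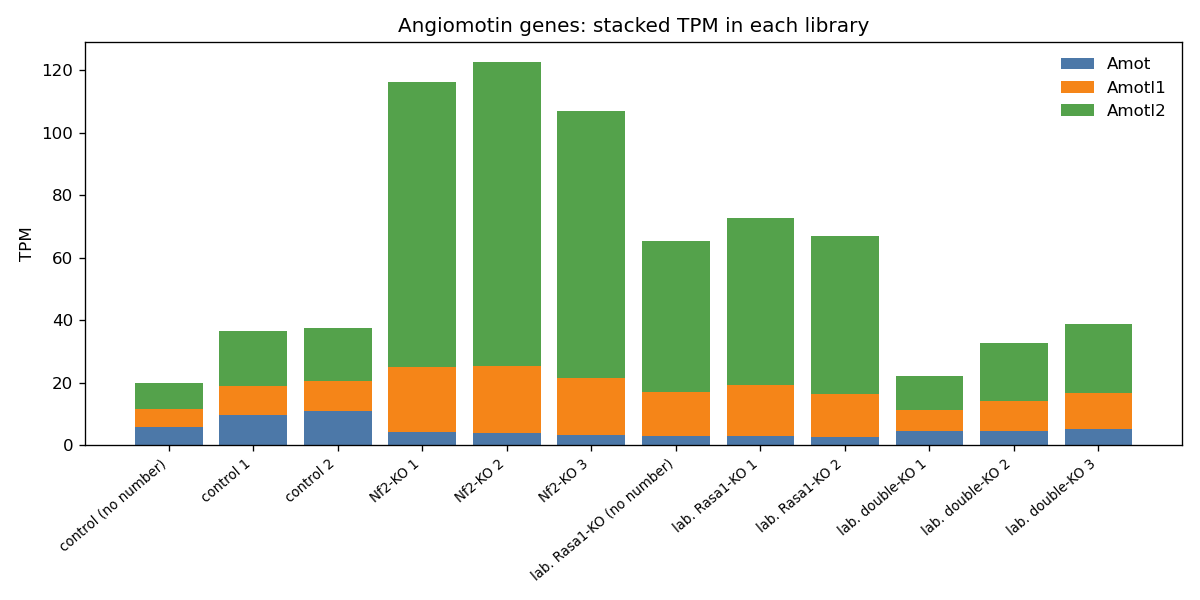
TPM of *Amot*, *Amotl1* and *Amotl2* (y axis, stacked from 0) in each of the 12 libraries. The bars of *Nf2*-KO reach 107 to 123 and those of the labelled *Rasa1*-KO 65.4 to 72.6, nearly all of it *Amotl2* and *Amotl1*, against 19.8 to 37.7 in control. TPM are not TMM-scaled between libraries.

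In the order of levels per length, *Wwtr1* came first in control with 53.7 to 61.9 TPM, above *Vgll4* (38.8 to 44.1 TPM) and *Yap1* (29.1 to 43.7 TPM), whose ranges overlapped. *Amotl2* came first in *Nf2*-KO with 85.6 to 97.4 TPM, above *Wwtr1* at 63.6 to 73.9 TPM in every library. In the labelled *Rasa1*-KO, *Amotl2* (48.3 to 53.4 TPM) and *Wwtr1* (46.2 to 49.8 TPM) overlapped, and in the labelled double-KO *Wwtr1* (60.3 to 80.3 TPM) was again first and *Amotl2* (10.7 to 22.1 TPM) below *Yap1*. By median, *Tead4* was last in control, in *Nf2*-KO, where its range overlapped those of *Amot*, *Tead1* and *Tead3*, and in the labelled double-KO, and *Tead3* in the labelled *Rasa1*-KO at 2.25 to 2.81 TPM, where the ranges of *Tead1*, *Amot* and *Tead3* overlapped. Of the 36 neighbouring pairs in the 4 orders, 12 had ranges that did not overlap. Among 13983 coding genes of a library, *Wwtr1* was above 88.9% to 93.0% and *Yap1* above 79.3% to 83.5%. The spans were wide for *Tead2*, above 36.8% to 82.1% of them, and for *Amotl2*, above 50.0% to 93.8%.

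The other genes of the pathway were taken from 5 lists of general knowledge, of which 76 genes were tested. Of 21 YAP/TAZ-TEAD targets that are no member, 10 were higher and 4 lower in *Nf2*-KO (median log2 fold change 0.43, all tested genes -0.07). Beside these and the following counts stand 20.6% higher and 22.2% lower of all tested genes in *Nf2*-KO, 19.7% and 22.2% in the labelled *Rasa1*-KO, and 4% and 2.46% in the labelled double-KO. In the labelled *Rasa1*-KO 9 were higher and 4 lower (0.32, all tested genes -0.08), and in the labelled double-KO 5 were higher and 1 lower (0.21, all tested genes -0.04). *Ccdc80*, a matrix protein gene, rose by 3.79 in *Nf2*-KO (edgeR, SE 0.56, adjusted p = 0.00022), from 0.287 to 2.08 CPM in control to 17.2 to 19.7 CPM. *Ccn1*, a matricellular protein gene and a widely used YAP readout, rose by 3.21 (edgeR, SE 0.52, adjusted p = 0.00047), from 16.7 to 58.0 CPM to 388 to 416 CPM. In the labelled *Rasa1*-KO, *Ccdc80* rose by 2.28 (edgeR adjusted p = 0.0054) and *Ccn1* by 1.84 (edgeR adjusted p = 0.012). *Igfbp3*, which encodes an IGF-binding protein, rose by 2.89 in *Nf2*-KO (edgeR, SE 0.44, adjusted p = 0.00029). It rose by 3.16 in the labelled *Rasa1*-KO (edgeR, SE 0.45, adjusted p = 0.00021) and by 2.18 in the labelled double-KO (edgeR, SE 0.43, adjusted p = 0.012). *F3*, the tissue factor gene, rose by 1.8 in *Nf2*-KO (edgeR, SE 0.14, adjusted p = 1.4e-06). It rose by 1.69 in the labelled *Rasa1*-KO (edgeR, SE 0.14, adjusted p = 3.4e-06) and by 1.52 in the labelled double-KO (edgeR, SE 0.13, adjusted p = 0.00014). Lower were *Fjx1* in *Nf2*-KO (-2.45, edgeR adjusted p = 5.1e-05) and in the labelled *Rasa1*-KO (-1.86, edgeR adjusted p = 0.0004), and the kinase gene *Nuak2* in *Nf2*-KO (-1.20, edgeR adjusted p = 0.00024). *Nuak2* was also lower in the labelled *Rasa1*-KO (-0.86, edgeR adjusted p = 0.0027). *Rbms3* was lower in the labelled double-KO (-1.42, edgeR adjusted p = 0.042) but higher in *Nf2*-KO (1.14, edgeR adjusted p = 0.024). *Ccn2*, named here after its values were seen, had log2 fold changes of 0.43, 0.65 and 0.16, none of them called.

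Of 23 Hippo kinases, adaptors and upstream regulators, 8 were higher and 7 lower in *Nf2*-KO, 7 higher and 7 lower in the labelled *Rasa1*-KO, and 1 higher in the labelled double-KO, where 6 had an unadjusted p under 0.05 and DESeq2 called 3. *Nf2* is on this list and is one of the lower genes in both groups with low *Nf2* mRNA, which its own knockout fixes. The shares of all tested genes called by edgeR in either direction were 42.8%, 41.9% and 6.46%, and those by unadjusted p or by DESeq2 were not taken. *Frmd6*, which encodes a FERM protein upstream of the kinases, rose by 1.63 in *Nf2*-KO (edgeR, SE 0.10, adjusted p = 2.7e-07). It rose by 1.31 in the labelled *Rasa1*-KO (edgeR, SE 0.10, adjusted p = 1.8e-06) and by 0.76 in the labelled double-KO (edgeR, SE 0.09, adjusted p = 0.001). The protocadherin gene *Fat4* rose by 1.94 in *Nf2*-KO (edgeR adjusted p = 0.0019), with 31.6 to 37.4 CPM against 3.37 to 12 CPM in control. *Ajuba* and *Wtip*, whose proteins are LIM-domain inhibitors of LATS, rose in the labelled *Rasa1*-KO by 1.53 (edgeR adjusted p = 2.4e-06) and 1.37 (edgeR adjusted p = 0.00018). They rose in *Nf2*-KO too, by 1.48 (edgeR adjusted p = 1.9e-06) and 1.26 (edgeR adjusted p = 0.00027). The kinase gene *Taok3* fell by 1.26 in *Nf2*-KO (edgeR adjusted p = 0.0018) and by 0.94 in the labelled *Rasa1*-KO (edgeR adjusted p = 0.011).

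Of 8 polarity proteins that bind angiomotins, 3 were higher and 4 lower in *Nf2*-KO, 2 higher and 3 lower in the labelled *Rasa1*-KO, and 1 lower in the labelled double-KO, beside 42.8%, 41.9% and 6.46% of all tested genes in either direction. *Patj*, which encodes a tight junction scaffold, was lower in all of them, by -1.58 in *Nf2*-KO (edgeR adjusted p = 4.8e-07), -1.37 in the labelled *Rasa1*-KO (edgeR adjusted p = 2.1e-06) and -0.50 in the labelled double-KO (edgeR adjusted p = 0.013). Its paralog *Mpdz* rose by 0.87 in *Nf2*-KO (edgeR adjusted p = 0.0012), and *Mpp5*, the gene of PALS1, by 0.38 there (edgeR adjusted p = 0.035) and by 0.38 in the labelled *Rasa1*-KO (edgeR adjusted p = 0.034). *Crb3*, an apical polarity gene, fell by 1.43 in *Nf2*-KO (edgeR adjusted p = 0.00042). In the labelled *Rasa1*-KO, *Lin7c* rose by 0.48 (edgeR adjusted p = 0.0053) and *Magi1* fell by 0.73 (edgeR adjusted p = 0.00017). Both were called in *Nf2*-KO as well, *Lin7c* at 0.3 (edgeR adjusted p = 0.046) and *Magi1* at -1.1 (edgeR adjusted p = 6e-06).

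Of 13 partners of YAP/TAZ and TEAD in the tests, 2 were higher and 3 lower in *Nf2*-KO, and 1 higher and 3 lower in the labelled *Rasa1*-KO, beside 42.8% and 41.9% of all tested genes. Leaving out 1 library moved the lower genes to between 0 and 7 in *Nf2*-KO and to between 0 and 8 in the labelled *Rasa1*-KO. For the labelled double-KO edgeR called 0, none had an unadjusted p under 0.05, and DESeq2 called 0. *Vgll3*, a paralog of *Vgll4*, rose by 1.54 in *Nf2*-KO (edgeR, SE 0.54, adjusted p = 0.038), at 4.22 to 5.19 CPM. *Ywhah*, a 14-3-3 gene, rose by 0.58 in *Nf2*-KO (edgeR adjusted p = 0.011) and by 0.71 in the labelled *Rasa1*-KO (edgeR adjusted p = 0.004), whereas the 14-3-3 gene *Sfn* fell by 0.97 (edgeR adjusted p = 0.013) and 0.79 (edgeR adjusted p = 0.034). Of 11 turnover genes, 2 were higher and 3 lower in *Nf2*-KO, and 1 higher and 4 lower in the labelled *Rasa1*-KO. For the labelled double-KO edgeR called 0, 1 had an unadjusted p under 0.05, and DESeq2 called 1. The shares of all tested genes by unadjusted p or by DESeq2 were not taken for either list. Among the turnover genes, the kinase gene *Csnk1e* rose by 0.46 in *Nf2*-KO and 0.61 in the labelled *Rasa1*-KO (edgeR adjusted p = 0.049 and 0.015). *Fbxw11* rose by 0.23 in *Nf2*-KO (edgeR adjusted p = 0.048). The ligase genes *Nedd4* and *Nedd4l* were lower by -0.38 and -0.39 in *Nf2*-KO (edgeR adjusted p = 0.024 and 0.032) and by -0.40 and -0.47 in the labelled *Rasa1*-KO (edgeR adjusted p = 0.021 and 0.013).

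The genes with the most similar pattern were searched for the members that were called with an absolute log2 fold change of at least 1 against control, by Pearson's r of log2 CPM over the 12 libraries among 12276 genes with a mean log2 CPM of at least 1. The libraries fall into groups, so r describes these groups and is no test. Closest to *Amotl2* were *Nfil3* (r = 0.994), *Ggta1* and the caveolin gene *Cav1* (both r = 0.993), and *Birc3* was the most opposite (r = -0.994). *Cav1* had mean levels of 47.2 CPM in control, 487 CPM in *Nf2*-KO, 393 CPM in the labelled *Rasa1*-KO and 84.7 CPM in the labelled double-KO. Closest to *Amotl1* were *Dse* and the enolase gene *Eno2* (both r = 0.994) and *Apol9a* (r = 0.993), with *Gnptab* the most opposite (r = -0.989). Closest to *Amot* were the phospholipase D gene *Pld1* (r = 0.982), *Micall2* (r = 0.981) and *Abca8b* (r = 0.980), with *Impa2* the most opposite (r = -0.989). Closest to *Tead1* were *Ankrd17* and *Erc1* (both r = 0.991) and *Lpp* (r = 0.988), which span 141.5, 277 and 599 kb, with *Polb* the most opposite (r = -0.971). The other genes found in this search span 7.3 to 194.9 kb.

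A departure from additivity asks whether the double-KO differs from the sum of the log2 changes of the single KO groups. With labels as given, 8 of 10 members departed, 4 higher and 4 lower, beside 52.4% of all tested genes (27.4% higher and 24.9% lower), and 5 with a fold of 3 or more, beside 25.3%. *Amotl2* had the largest value among the members, -4.68 (edgeR, SE 0.28, adjusted p = 1.3e-07). *Nf2* itself departed by 4.41 (edgeR adjusted p = 7.8e-10). The values with labels as given describe an interaction of the knockouts only if the labels hold. With the labels *Rasa1*-KO and double-KO exchanged, as in the names of the tables, the libraries with low *Nf2* mRNA and reduced *Rasa1* mRNA become the double-KO, and 2 of 10 members departed, 0 higher and 2 lower, beside 6.41% of all tested genes (2.69% higher and 3.72% lower), and 0 with a fold of 3 or more, beside 3.81%. They were *Amotl2* at -1.13 (edgeR, SE 0.26, adjusted p = 0.026) and *Wwtr1* at -0.76 (edgeR, SE 0.16, adjusted p = 0.018), both below the sum of the single KO groups. The *Amotl2* call was lost without any 1 of 8 libraries (edgeR adjusted p between 0.058 and 0.073) and the *Wwtr1* call without any 1 of 5 (between 0.052 and 0.066). By raw p under 0.05 there were 3, and DESeq2 called 3, but the shares of all tested genes by these rules were not taken. Under the exchanged labels the comparisons with control also trade places: 5 members passed in double-KO against control and 3 in *Rasa1*-KO against control.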

How the data were processed

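RNA-seq libraries of S1 tumorspheres, 3 per group, were made with a stranded total RNA kit after rRNA removal. Per the study's methods, reads were trimmed (Trimmomatic), mapped to mm10 (HISAT2) and assigned to RefSeq genes (StringTie) by the authors. The deposited tables give raw read counts, FPKM and TPM per gene as the authors made them. Groups were taken from the labels, not from the names of the tables, which disagree with them. The 10 members, gene lists and tests were chosen with earlier results of these data known.

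Counts were tested with edgeR 4.0.16 in R 4.3.3 (quasi-likelihood test, TMM, filterByExpr, 1 fit over the 12 libraries), with Benjamini-Hochberg adjustment over 18053 genes and calls at an adjusted p under 0.05. The scripts were tested on simulated data. Alternatives used DESeq2 1.42.0 and limma 3.58.1 on log2(FPKM + pseudocount) of the deposited FPKM. Named genes were the members, the targeted and model genes, and per list and comparison with control up to 2 called genes at each end. They also included, for members called with an absolute log2 fold change of at least 1, the 3 genes most and the 1 least correlated. Genes named outside this rule are said to be so. Some genes that the rule names are not reported here. Over all groups, same-numbered libraries had correlations of their deviations between -0.379 and 0.399 by label number and between -0.055 and 0.626 by table name. The numbers were not taken to pair libraries in the fit reported. For control with the labelled double-KO alone, the same-numbered values by table name were 0.313 to 0.626, and whether these libraries are paired was not tested.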

Additional observations from a re-analysis of the deposited data

Results flagged for a closer look

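The departure from additivity asks whether the effect of 1 knockout differs with the other, but only if the labels hold. With labels as given, it was called by edgeR for *Amotl2* (-4.68), *Tead2* (-2.89), *Amotl1* (-2.38), *Tead4* (-1.1), *Vgll4* (0.62), *Tead3* (0.83), *Amot* (1.6) and *Tead1* (2.34), beside 52.4% of all tested genes. The *Tead3* call was lost without any 1 of 9 libraries, the *Tead4* call without any 1 of 10 and the *Vgll4* call without any 1 of 4. With the labels *Rasa1*-KO and double-KO exchanged, it was called for *Amotl2* (-1.13) and *Wwtr1* (-0.76), beside 6.41% of all tested genes. The labels and the names of the tables cannot both hold, and the *Nf2* mRNA levels go against the labels. *Nf2* itself departed by 4.41 with labels as given (edgeR adjusted p = 7.8e-10) and by -0.21 with them exchanged (edgeR adjusted p = 0.38). *Rasa1* departed by -1.1 and 0.17 (edgeR adjusted p = 0.00033 and 0.68).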

How the results depend on the processing

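Of 1740 values of members under an alternative, 1512 kept their direction and their side of the threshold, 86 lost and 94 gained a call, and 48 changed sign. None of the values that changed sign was called. The calls of *Amot*, *Amotl1* and *Amotl2* against control in *Nf2*-KO and in the labelled *Rasa1*-KO held under every alternative fit, but by the rule of a fold of 3 or more only 1 member passed in each. None of the 18926 genes had a count of 0 in any library, so a count of 0 could not occur for a member. The causes of the changes below were not tested. The share of all tested genes that were called also moved between fits. Without the unnumbered control it went from 42.8% to 61.6% in *Nf2*-KO and from 6.46% to 30.1% in the labelled double-KO. Where no share is given for a fit, none was taken, and its count is no result about the members alone.

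Leaving out 1 library, the members called ranged from 4 to 7 in *Nf2*-KO against control, 3 to 7 in the labelled *Rasa1*-KO, 0 to 5 in the labelled double-KO, 4 to 9 between the labelled double-KO and the labelled *Rasa1*-KO, 0 to 2 between the labelled *Rasa1*-KO and *Nf2*-KO, and 3 to 6 between the labelled double-KO and *Nf2*-KO. Departures ranged from 5 to 9 with labels as given and 0 to 3 exchanged. The pathway genes called ranged from 33 to 61, 31 to 57 and 3 to 28 in the comparisons with control (46, 41 and 8 with all libraries), and separate neighbouring ranges in the order of levels from 12 to 15. Without both the unnumbered control and labelled double-KO 1, the members called in the comparisons with control were 7, 8 and 5 (beside 67%, 65.9% and 29.9% of all tested genes), with 8 between the labelled groups (beside 50.3%), 3 between the labelled *Rasa1*-KO and *Nf2*-KO, 5 departures exchanged, and 32 pathway genes in the labelled double-KO. Under the rule of a fold of 3 or more with an unadjusted p under 0.05, they were 1, 1 and 0 against control, 2 between the labelled groups, 2 between the labelled double-KO and *Nf2*-KO, and 5 and 0 departures. With only the groups compared in the fit, they were 3 in the labelled *Rasa1*-KO, 0 in the labelled double-KO, 9 between the labelled groups and 3 between the labelled *Rasa1*-KO and *Nf2*-KO. Exchanging the labels gave 3 for *Rasa1*-KO and 5 for double-KO. DESeq2, with or without independent filtering, called 1 member between the labelled *Rasa1*-KO and *Nf2*-KO, and with it 14 pathway genes in the labelled double-KO. In the comparisons with control, DESeq2 called 5, 6 and 4 members, and the shares of all tested genes were not taken. limma on log2(FPKM + 1) and on log2(FPKM + 0.1) gave 5 and 5 departures with labels as given.

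The numbers in the labels and table names were not taken to pair the libraries in the fit reported. Correlations of same-numbered libraries had a median of 0.024 by label (lowest -0.379) and of 0.078 by table name (lowest -0.055). By table name labelled double-KO 1 is unnumbered, like the unnumbered control, with which its deviations had a correlation of 0.626. The other control and labelled double-KO libraries with the same number by table name had 0.313 and 0.444. Those with different numbers had -0.56 to 0.399. Whether such libraries share a batch was not tested. A replicate block by table-name number called 8 members in the labelled *Rasa1*-KO, 5 in the labelled double-KO, 1 between the labelled *Rasa1*-KO and *Nf2*-KO and 4 departures exchanged. It called *Tead2* in *Nf2*-KO (1.59, edgeR adjusted p = 2.7e-05), the labelled *Rasa1*-KO (1.57, edgeR adjusted p = 4.1e-05) and the labelled double-KO (-1.0, edgeR adjusted p = 0.0015). A replicate block by label number called 1 in the labelled double-KO and 1 departure exchanged. The shares of all tested genes called with either block were not taken.

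The values that changed sign were as follows, as log2 fold changes. *Yap1* in the labelled *Rasa1*-KO was -0.08 and -0.09 by limma, against *Nf2*-KO 0.00 and 0.00 without a library, and its departure as given -0.00 and -0.00. *Tead1* in the labelled double-KO was 0.13 (block), 0.05 (limma) and 0.38 (without control 2), 0.01 between the labelled *Rasa1*-KO and *Nf2*-KO, and its exchanged departure 0.07, 0.25, 0.05, 0.12 and 0.26. *Tead2* was 0.05 between the labelled *Rasa1*-KO and *Nf2*-KO. *Tead3* was 0.05 in the labelled double-KO without control 2, -0.01 against *Nf2*-KO, and its exchanged departure 0.02. *Tead4* in the labelled double-KO was -0.02, -0.16 and -0.01, and its exchanged departure 0.46, 0.31, 0.07, 0.01, 0.09, 0.01 and 0.17. *Vgll4* in the labelled double-KO was -0.05, -0.05, -0.12 and -0.06, between the labelled *Rasa1*-KO and *Nf2*-KO -0.04, and its exchanged departure, 0.00 in the fit reported, lay between -0.17 and -0.00, at -0.16, -0.08, -0.03, -0.02 and -0.01 among others. Over the libraries left out, the ranges were -0.54 to 0.38 (*Tead1*), -0.45 to 0.05 (*Tead3*), -0.16 to 0.53 (*Tead4*) and -0.12 to 0.20 (*Vgll4*) in the labelled double-KO against control. Between the labelled *Rasa1*-KO and *Nf2*-KO they were -0.05 to 0.00 (*Yap1*), -0.52 to 0.01 (*Tead1*) and -0.09 to 0.05 (*Tead2*), and -0.01 to 0.18 for *Tead3* between the labelled double-KO and *Nf2*-KO. For exchanged departures they were -0.66 to 0.25 (*Tead1*), -0.37 to 0.31 (*Tead4*) and -0.17 to 0.15 (*Vgll4*).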
